A study of Mus musculus with 16 samples.

Results

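The SIBLING matrix proteins (small integrin-binding ligand, N-linked glycoproteins) were followed in single-cell RNA-seq data from bone marrow stromal cell cultures of mice with and without *Dmp1* and *Fgf23*. The 4 members *Dmp1*, *Ibsp*, *Spp1* and *Mepe* were taken by name from the 32285 genes of the count matrices, and *Dspp*, the remaining gene of the cluster, had 0 UMIs (unique molecular identifiers, each the mark of 1 captured mRNA molecule) in every sample. Marrow came from 12-week-old male littermates on C57BL/6J, and the cells were grown for 21 days in osteogenic medium with 10 mM beta-glycerophosphate. All 4 genotypes carried floxed *Fgf23* alleles. WT was Dmp1+/+ Fgf23 fl/fl without Cre, Fgf23cKO was Dmp1+/+ Fgf23 fl/fl with Dmp1-cre, Dmp1KO was Dmp1-/- Fgf23 fl/fl without Cre, and Dmp1KO/Fgf23cKO was Dmp1-/- Fgf23 fl/fl with Dmp1-cre. The Cre transgene is driven by the promoter of *Dmp1*, one of the members, so *Fgf23* is removed only where that promoter has been active, whereas the *Dmp1* knockout is global. In each genotype 3 cultures were marked with an oligonucleotide tag and pooled into 1 droplet reaction, which means that a genotype and its reaction cannot be told apart. Counts of 1 tagged Dmp1KO culture were not analysed here, which left 2. A 4th sample of each genotype was taken as cells of the same pool without a clear tag and is given as a value outside the tests. The 3 cultures of a genotype stand for separate mice, and p-values measure the spread between them within 1 reaction.

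SIBLING proteins are acidic, heavily phosphorylated secreted proteins that bind calcium and, through an Arg-Gly-Asp motif, integrins on the cell surface. DMP1 is made by osteocytes and late osteoblasts and is needed for matrix mineralization and for restraint of *Fgf23*. IBSP (bone sialoprotein) is made by osteoblasts and nucleates hydroxyapatite, MEPE is a late osteocyte product, and SPP1 (osteopontin) inhibits crystal growth and is also made by macrophages and osteoclasts.

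The members are neighbours on mouse chromosome 5 (GRCm38), all on the forward strand, within 238.4 kb from the start of *Dmp1* to the end of *Spp1*. *Dmp1* lies at chr5:104202613-104214102, *Ibsp* at chr5:104299171-104311469, *Mepe* at chr5:104325329-104338611 and *Spp1* at chr5:104435118-104441050. *Spp1* overlaps *Gm42793*, a gene model on the same strand that was not among the genes of the matrices. The bases just before the start of each gene are shown because the members differed in which cells their RNA was counted, with no link to sequence tested. These bases were read from RefSeq promoter sequences (GRCm38.p6), 5′ to 3′ on the strand of the gene. Capitals mark ATTGG, the box bound by NF-Y as it reads on the other strand, and TTTAAA, a run rich in A and T. For *Dmp1* (chr5:104202517-104202616), *Mepe* (chr5:104325229-104325328) and *Spp1* (chr5:104435011-104435110) the 100 bases before the RefSeq start are given, and for *Ibsp* (chr5:104299225-104299254) a 30-base stretch ending 33 bases before it, since its start lies within exon 1 of the GENCODE model.
Dmp1: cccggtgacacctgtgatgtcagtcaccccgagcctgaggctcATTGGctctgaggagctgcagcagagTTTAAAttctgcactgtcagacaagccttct
Ibsp: cagctgtgATTGGctgttgagaggcggaga
Mepe: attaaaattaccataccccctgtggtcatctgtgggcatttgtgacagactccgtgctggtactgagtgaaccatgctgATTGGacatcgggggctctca
Spp1: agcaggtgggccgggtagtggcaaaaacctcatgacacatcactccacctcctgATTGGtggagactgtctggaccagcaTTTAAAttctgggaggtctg

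ATTGG stood on the gene strand of all 4 members, starting 57 bases before the start of *Dmp1*, 54 before *Ibsp*, 46 before *Spp1* and 21 before *Mepe*. Among 32851 mouse promoters it was found on the gene strand within 250 bases of the start in 19.7%, and on either strand in 33.9%. TTTAAA stood 31 bases before *Dmp1* and 20 before *Spp1*, and 12.1% of promoters held it. ATTGG together with TTTAAA on the gene strand, as in *Dmp1* and *Spp1*, was found in 2.28% of promoters. ACCACA, the core bound by RUNX2, lay 164 bases before *Dmp1*, 128 before *Spp1* and 118 before *Mepe* on the gene strand, against 7.13% of promoters on that strand, and a second copy lay 80 bases before *Mepe* on the other strand. These motifs were chosen after the sequences were seen, and a match describes letters, not a bound site.

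The matrices held 17793 cells from 15 samples, of which 14577 were in the 11 tagged cultures. Total UMIs per tagged culture ran from 9518928 to 72482185 and the median cell from 7137 to 34988 UMIs, lowest in the WT cultures. Cells with at least 25 UMIs per 10,000 of *Col1a1*, *Col1a2*, *Sparc*, *Tagln* and *Tpm2* together were called stroma (2074 cells, 1128 of them tagged) and the other 15719 myeloid, and 307 cells lay at 20 to 30. Of stromal markers not used by this gate, 7 of 7 were present, summing in tagged cultures to 47.2 to 69.6 per 10,000 in stroma and 0.221 to 0.779 in myeloid cells. The 8 macrophage markers, all present, summed to 286 to 375 in myeloid cells and 24.2 to 55.5 in stroma. The T or NK cell, B cell, neutrophil, erythroid and endothelial lists each summed to under 0.2 per 10,000 in either compartment, with *Ly6g* and *Retnlg* at 0. The chondrocyte list reached 5.49 in 1 stromal sum of Fgf23cKO. In stroma the adipocyte list summed to 0.109 to 0.223 in WT, 0.00396 to 1.32 in Fgf23cKO, 0.0149 to 0.168 in Dmp1KO and 0.310 to 0.513 in Dmp1KO/Fgf23cKO. The osteoclast list summed to 3.52 to 9.86 in myeloid cells, with all 7 markers present, among them *Calcr* with 107 UMIs in all. No barcode was shared between samples of a genotype, and 44 were shared between samples of different genotypes.

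*Dmp1*, the gene deleted in the Dmp1-/- groups, was read first. In WT stroma it stood at 2.98, 4.21 and 6.82 UMIs per 10,000 in the 3 tagged cultures, and in Fgf23cKO at 1.97, 3.47 and 0.460. Dmp1KO stroma held 0 UMIs in 1 culture and 3 UMIs (0.0107 per 10,000) in the other. Dmp1KO/Fgf23cKO stroma held 76, 47 and 26 UMIs, or 0.144, 0.0705 and 0.0713 per 10,000. All 5 cultures of the Dmp1-/- groups were below all 6 cultures with intact *Dmp1*. Over the tagged cultures, the Dmp1KO level was 0.121% of WT (exact 95% interval for counting error 0.0249 to 0.353%) and the Dmp1KO/Fgf23cKO level was 1.85% of WT (interval 1.56 to 2.18%). Both decreases passed the test (edgeR quasi-likelihood test, Benjamini-Hochberg over the 12404 genes tested in stroma, adjusted p = 0.000931 and 0.000834), in comparisons where 26.1% and 22.6% of genes tested were called at an adjusted p under 0.1. The sources used here do not name the part of *Dmp1* that was removed, and 3′ counts can lie outside it. With each cell thinned to 1000 UMIs, which gives every cell the same weight, the log2 ratio of Dmp1KO/Fgf23cKO to WT was -3.36, against -5.64 unthinned, and remained a call (edgeR adjusted p = 1.05e-05).

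A low *Dmp1* count therefore remained in Dmp1KO/Fgf23cKO. It came to 175 UMIs over all 4 samples, in 35 stromal cells of 597, with at most 24 in a cell. All 35 cells also held *Ibsp*, their median depth was 110856 UMIs, and none of their barcodes occurred in WT or Fgf23cKO. In Dmp1KO the total was 5 UMIs in 4 stromal cells of 379. Set against *Ibsp* in the same stroma, *Dmp1* came to 24.7 UMIs per 1000 of *Ibsp* in WT, 17.6 in Fgf23cKO, 0.844 in Dmp1KO/Fgf23cKO and 0.134 in Dmp1KO. The log2 ratio of Dmp1KO/Fgf23cKO to Dmp1KO was 3.88 ± 1.69 (SE) and was not called (edgeR adjusted p = 0.213, where 8.4% of genes were called). Dmp1KO/Fgf23cKO was lower than Fgf23cKO by 4.37 ± 0.68 on the log2 scale (edgeR adjusted p = 0.0215), in a comparison that called 2.34% of genes; the call was lost without Dmp1KO/Fgf23cKO culture 2 (adjusted p = 0.102) or 3 (adjusted p = 0.113). At 1000 UMIs per cell it was lower by less, at a log2 ratio of -2.12 (edgeR adjusted p = 0.0864).

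Among the groups with intact *Dmp1*, the Fgf23cKO cultures averaged 1.97 ± 1.51 (SD, n = 3) against 4.67 ± 1.96 in WT, and the ranges overlapped. The log2 ratio was -1.27 ± 0.56 (SE; edgeR adjusted p = 0.191), in a comparison that called 15% of genes; without Fgf23cKO culture 2 it was -1.95 with an adjusted p of 0.0766. A single untagged Fgf23cKO cell held 909 of the 4521 stromal *Dmp1* UMIs of that genotype. In the stroma of WT and Fgf23cKO lay 98.1% and 96.9% of all *Dmp1* UMIs. Myeloid cells of these genotypes held 0.0152 to 0.0204 per 10,000 over the 6 cultures, and those of both Dmp1-/- groups held 0. Against a floor of 3 UMIs over the group, myeloid *Dmp1* was at least 71.6-fold lower in Dmp1KO than in WT, at least 38.7-fold lower in Dmp1KO/Fgf23cKO than in WT, and at least 43.7-fold lower in Dmp1KO/Fgf23cKO than in Fgf23cKO (edgeR adjusted p = 1.58e-06, 5.1e-06 and 3.44e-05). In myeloid cells these comparisons called 67.8%, 58.2% and 36.7% of the 14057 genes tested.

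**Figure D1:**
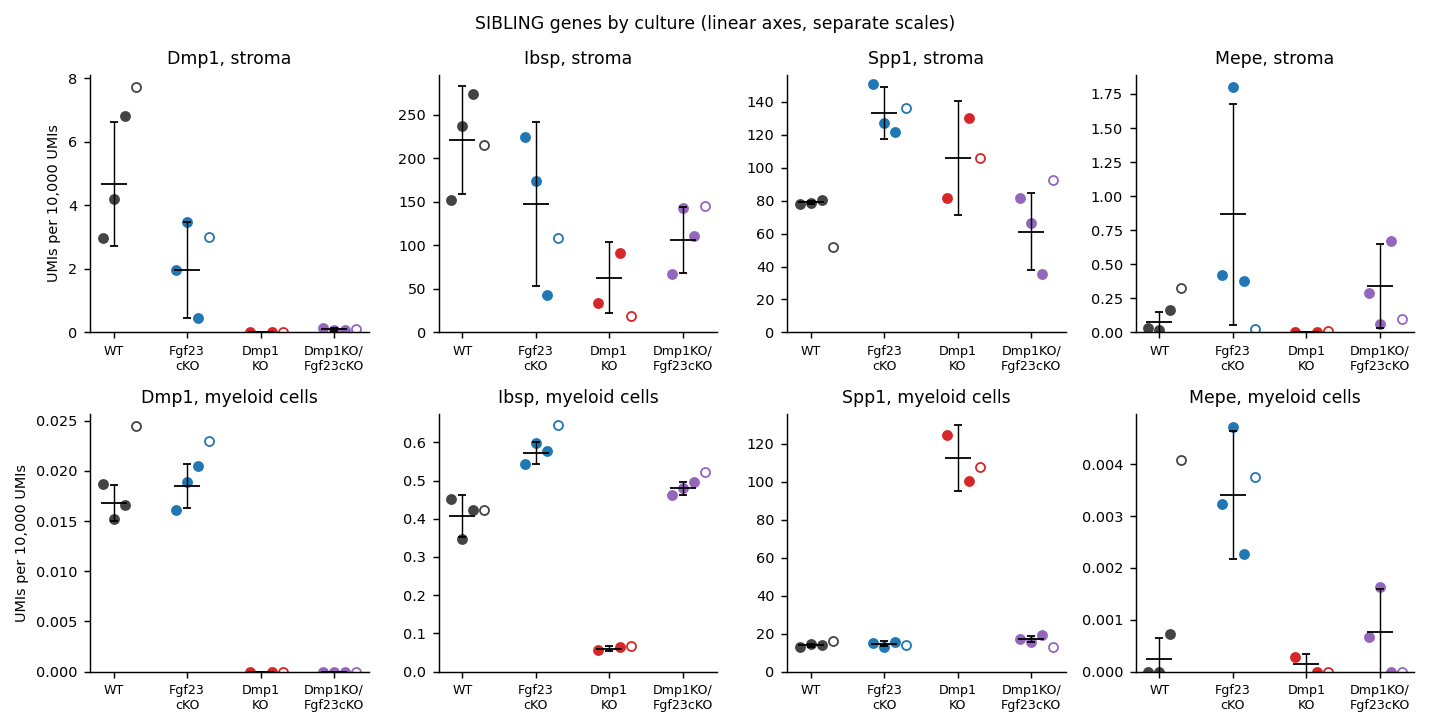
UMIs per 10,000 of each member in stroma and in myeloid cells, one panel per gene and compartment, each with its own linear axis; filled points are tagged cultures, open points the untagged sample, and bars the mean ± SD of the tagged cultures. *Spp1* in myeloid cells of Dmp1KO, at 124.7 and 100.08 in the tagged cultures, stands above every other genotype (12.9 to 19.1), while stromal *Ibsp* overlaps between genotypes except WT and Dmp1KO, and WT and Dmp1KO/Fgf23cKO.

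*Ibsp* lay almost wholly in stroma, which held 97.7 to 98.9% of its UMIs in every genotype. WT stroma held 152, 237 and 274 UMIs per 10,000, Fgf23cKO 225, 174 and 43.2, Dmp1KO 34.2 and 91.8, and Dmp1KO/Fgf23cKO 66.9, 143 and 111. Both Dmp1KO cultures and all 3 Dmp1KO/Fgf23cKO cultures were below the lowest WT culture, whereas Fgf23cKO spanned almost the whole range. The untagged samples stood at 216 in WT, 108 in Fgf23cKO, 19.1 in Dmp1KO and 145 in Dmp1KO/Fgf23cKO.

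Dmp1KO stroma had less *Ibsp* than WT by 1.85 ± 0.66 on the log2 scale (3.61-fold; edgeR adjusted p = 0.077). At full depth this call rests on few cultures and few cells. It was lost without WT culture 2 (log2 ratio -1.81, adjusted p = 0.139), without WT culture 3 (-1.63, adjusted p = 0.174) and without Dmp1KO culture 2 (-1.29, adjusted p = 0.37). The 5 richest stromal cells held 66.2% of the *Ibsp* UMIs of Dmp1KO, against 15.4 to 30.02% in the other genotypes. The log2 ratio to WT was -1.07 ± 0.56 in Dmp1KO/Fgf23cKO (edgeR adjusted p = 0.227) and -0.60 ± 0.55 in Fgf23cKO (edgeR adjusted p = 0.556), neither called. Dmp1KO/Fgf23cKO stood 0.78 ± 0.63 above Dmp1KO and 0.47 ± 0.55 below Fgf23cKO, also not called (edgeR adjusted p = 0.52 and 0.739). In whole stroma fewer osteoblasts and less *Ibsp* RNA in each cannot be told apart.

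*Ibsp* was also read in the stromal cells rich in osteocalcin RNA. Those with at least 25 UMIs per 10,000 of *Bglap* and *Bglap2* (osteocalcin, made by mature osteoblasts) were few in Dmp1KO, 3 and 4 cells in the tagged cultures, and 19, 8 and 8 in Fgf23cKO, so that only WT (34, 16 and 53 cells) and Dmp1KO/Fgf23cKO (20, 36 and 20 cells) could be tested there. In these Bglap-rich cells *Ibsp* stood at 335, 478 and 490 per 10,000 in WT and at 174, 221 and 205 in Dmp1KO/Fgf23cKO, with no overlap. The difference was 1.28 ± 0.22 on the log2 scale, or 2.43-fold lower in Dmp1KO/Fgf23cKO (edgeR adjusted p = 0.00859), where 10.8% of the 8522 genes tested were called. *Dmp1* was lower there too, by 5.46 ± 0.42 (edgeR adjusted p = 0.000221). *Spp1* had a log2 ratio of -0.27 ± 0.31 (edgeR adjusted p = 0.686) and *Mepe* of 2.48 ± 1.03 (edgeR adjusted p = 0.192). The Fgf23cKO cells held 373, 557 and 198 of *Ibsp*, and the Dmp1KO cells 28.1 and 369.5. The untagged Dmp1KO/Fgf23cKO sample held 425 over 48 cells, above its 3 tagged cultures and within the WT range. Depth differed between the genotypes. Over all samples, the median cell at 25 to 100 and at 100 and over held 2228.5 and 1856 UMIs in WT, and 3190 and 12684 in Dmp1KO/Fgf23cKO. These cells were not refitted with thinning, so the part of depth was not tested.

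The same pattern was read along the *Bglap* level, over all stromal cells of a genotype. *Ibsp* in WT rose from 49.8 per 10,000 in cells under 10 of *Bglap* plus *Bglap2* to 176, 298 and 560 in cells at 10 to 25, 25 to 100, and 100 and over. Fgf23cKO gave 34.3, 173, 298 and 561, close to WT in each of the 3 upper bins. Dmp1KO/Fgf23cKO gave 48.5, 119, 197 and 262, so its level was near that of WT in the lowest bin and lower in the highest. Dmp1KO had 346 of its 379 stromal cells in the lowest bin, at 31.6, and the 19, 10 and 4 cells of the next bins gave 283, 56.2 and 438, the first of them above WT. *Dmp1* ran from 0.536 to 15.9 in WT from the lowest to the highest bin, and in Fgf23cKO from 0.233 to 6.29, with its highest value, 7.51, at 10 to 25. These are sums over cells, with no test.

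**Figure D2:**
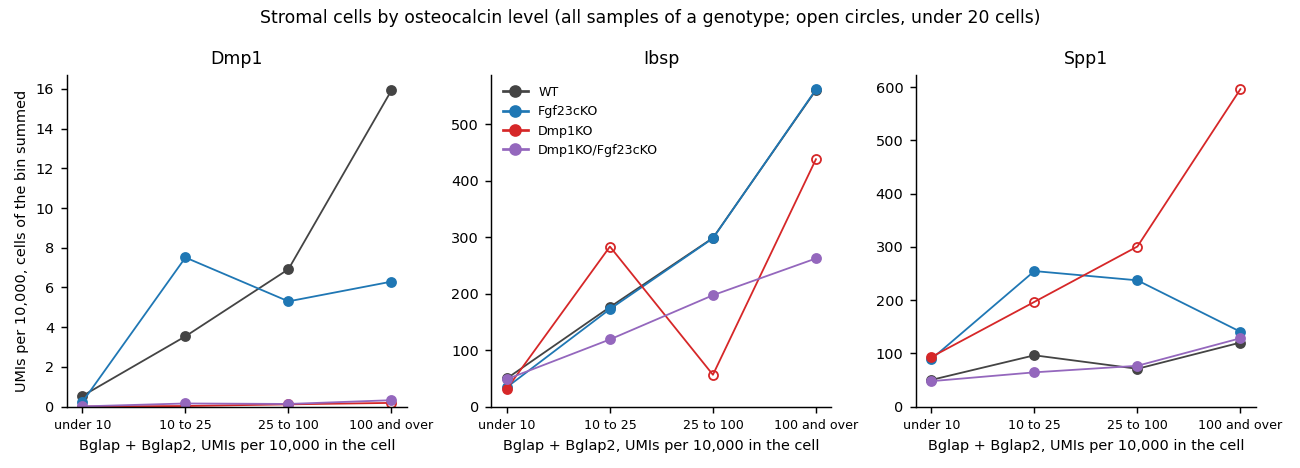
UMIs per 10,000 of *Dmp1*, *Ibsp* and *Spp1* in stromal cells grouped by their level of *Bglap* plus *Bglap2*, by genotype, with all samples of a genotype summed; open circles mark bins of fewer than 20 cells. *Ibsp* in the highest bin stands at 560 in WT and 561 in Fgf23cKO and at 262 in Dmp1KO/Fgf23cKO, while the Dmp1KO points above the lowest bin rest on 19, 10 and 4 cells.

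In myeloid cells *Ibsp* was near 0 but not absent, at 0.453, 0.347 and 0.422 per 10,000 in WT, 0.542, 0.599 and 0.577 in Fgf23cKO, 0.0566 and 0.0644 in Dmp1KO, and 0.463, 0.481 and 0.496 in Dmp1KO/Fgf23cKO. These values were 0.0701 to 1.34% of the stromal level of the same culture. Dmp1KO was below all other cultures, by 2.47 ± 0.10 on the log2 scale against WT and by 2.70 ± 0.10 against Dmp1KO/Fgf23cKO (edgeR adjusted p = 2.01e-09 and 1.5e-09), the second in a comparison that called 64% of genes. Fgf23cKO was 0.48 ± 0.08 above WT (edgeR adjusted p = 0.000558, where 50% of genes were called). Dmp1KO/Fgf23cKO was 0.23 ± 0.08 above WT (edgeR adjusted p = 0.0359; 0.21 without WT culture 2) and 0.26 ± 0.08 below Fgf23cKO (edgeR adjusted p = 0.0298; 0.11 without Dmp1KO/Fgf23cKO culture 1). The osteoblast reference genes named further on were also low in Dmp1KO myeloid cells: 9 of 12 were lower and 0 higher in Dmp1KO myeloid cells than in WT, and 11 were higher and 0 lower in Dmp1KO/Fgf23cKO than in Dmp1KO. In these comparisons 67.8% and 64% of all genes tested were called in either direction, so the first count is near the background. The median log2 ratios of the list were -1.02 and 1.75, against -0.0028 and -0.053 over all genes tested. Stromal cells made up 2.58 and 3.75% of all cells in the tagged Dmp1KO cultures, 4.08 to 10.4% in WT, 11.1 to 12.8% in Fgf23cKO and 12.5 to 17.9% in Dmp1KO/Fgf23cKO. Dmp1KO was thus lowest in both share and trace, whereas Dmp1KO/Fgf23cKO had the highest share and less of the trace than Fgf23cKO. The part of free osteoblast RNA in the trace was not tested.

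*Spp1* differed from the other members in where its RNA lay. Stroma held 45.03% of its UMIs in WT, 70.4% in Fgf23cKO, 49.4% in Dmp1KO/Fgf23cKO and 4.70% in Dmp1KO, where 1687397 *Spp1* UMIs were counted in all. In stroma the level was 78.2, 78.6 and 80.1 per 10,000 in WT, 151, 127 and 121 in Fgf23cKO, 81.3 and 130.4 in Dmp1KO, and 81.4, 66.6 and 35.6 in Dmp1KO/Fgf23cKO. The 3 Fgf23cKO cultures were above all WT and all Dmp1KO/Fgf23cKO cultures, and Dmp1KO overlapped with Fgf23cKO and with Dmp1KO/Fgf23cKO.

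Of these stromal differences only that between Dmp1KO/Fgf23cKO and Fgf23cKO was called, with a log2 ratio of -1.12 ± 0.27 (2.17-fold lower; edgeR adjusted p = 0.0863). Of 11 fits that left out 1 culture the call held in 3, those without Dmp1KO culture 2 or 3 or Dmp1KO/Fgf23cKO culture 1, with log2 ratios from -1.37 to -0.85 and adjusted p from 0.074 to 0.196 over the 11. It was also lost when each cell was thinned to 1000 UMIs, where the log2 ratio was -0.34 (adjusted p = 0.552). Fgf23cKO exceeded WT by 0.73 ± 0.27 (edgeR adjusted p = 0.113), and Dmp1KO/Fgf23cKO differed from Dmp1KO by -0.77 ± 0.29 (edgeR adjusted p = 0.161). The log2 ratio to WT was 0.39 ± 0.29 in Dmp1KO and -0.38 ± 0.27 in Dmp1KO/Fgf23cKO (edgeR adjusted p = 0.392 and 0.365). Along the *Bglap* level *Spp1* varied less than *Ibsp* did in WT and Fgf23cKO. Cells under 10 per 10,000 of *Bglap* plus *Bglap2* held 50.0 in WT, 89.1 in Fgf23cKO, 93.0 in Dmp1KO and 47.6 in Dmp1KO/Fgf23cKO. Cells at 100 and over held 120, 140, 596 (4 cells) and 128. In Fgf23cKO *Spp1* was highest between these ends, with 254 at 10 to 25 and 237 at 25 to 100.

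In myeloid cells *Spp1* was higher in both Dmp1KO cultures than in any other culture. The level was 12.9, 14.4 and 14.1 per 10,000 in WT, 15.2, 13.2 and 15.7 in Fgf23cKO, 17.3, 15.8 and 19.1 in Dmp1KO/Fgf23cKO, and 124.7 and 100.08 in Dmp1KO. The untagged Dmp1KO sample, at 107.6, lay between the 2 tagged cultures. Dmp1KO was higher than WT by 3.29 ± 0.11 on the log2 scale (9.80-fold; edgeR adjusted p = 5.65e-10) and Dmp1KO/Fgf23cKO was lower than Dmp1KO by 2.98 ± 0.11 (7.89-fold; edgeR adjusted p = 1.5e-09). Since most genes passed the threshold in these comparisons, size is the better guide: *Spp1* ranked 93rd from the top of 14057 genes in Dmp1KO against WT, with changes as large in either direction in 1.85% of genes, and 124th from the bottom in Dmp1KO/Fgf23cKO against Dmp1KO. Both comparisons share the Dmp1KO cultures. Leaving out each culture in turn gave 3.12 to 3.49 for the first and -3.16 to -2.79 for the second, and thinning cells to 1000 UMIs gave 2.62 and -2.55.

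Much smaller differences separated the other genotypes. Dmp1KO/Fgf23cKO was higher than WT by 0.31 ± 0.10 (edgeR adjusted p = 0.0184) and than Fgf23cKO by 0.25 ± 0.10 (edgeR adjusted p = 0.0806), and at 1000 UMIs per cell both fell to 0.07 (adjusted p = 0.61 and 0.772). The second call was also lost without Fgf23cKO culture 1 or 2 or Dmp1KO/Fgf23cKO culture 1 or 3 (log2 ratios from 0.17 upward, adjusted p up to 0.264). Fgf23cKO and WT had a log2 ratio of 0.07 ± 0.10 (edgeR adjusted p = 0.622).

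**Figure D3:**
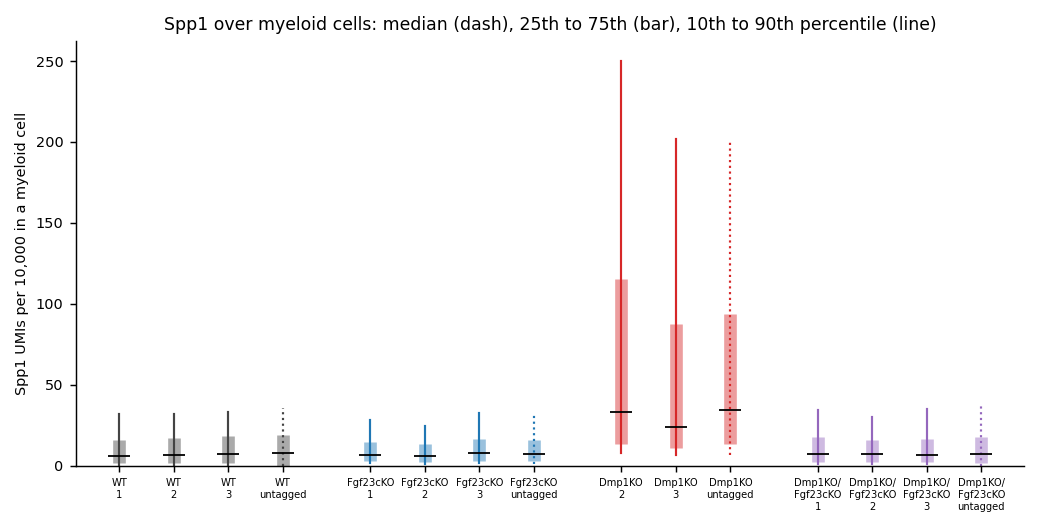
*Spp1* per cell in myeloid cells by sample, in UMIs per 10,000; the dash is the median cell, the bar the 25th to 75th percentile and the line the 10th to 90th. The median cell stands at 23.9 and 33.3 in the tagged Dmp1KO cultures and at 5.97 to 7.66 in the 9 other tagged cultures.

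The higher level was seen throughout the distribution of myeloid cells. The median cell held 23.9 and 33.3 per 10,000 in the Dmp1KO cultures and 5.97 to 7.66 elsewhere. The 10th percentile was 6.69 and 7.61 against 0 to 1.50, and cells at 50 or more made up 33.3 and 42.2% against 3.39 to 5.87%. The richest 10% of cells held 53.8 and 57.02% of the *Spp1* UMIs in Dmp1KO, within the 49.8 to 60.8% of the other cultures. At 1000 UMIs per cell these shares were 43.2 and 45.6% in Dmp1KO, below the 48.5 to 53.9% of the other tagged cultures. Dmp1KO cells shared 1 reaction, and the part of free *Spp1* RNA in the lower percentiles was not tested. With every cell thinned to 1000 UMIs, 82.6 and 86.3% of Dmp1KO myeloid cells had a *Spp1* UMI, against 49.0 to 55.1% in the 9 other cultures. Unthinned, the level moved with depth in Dmp1KO: with its myeloid cells split into 3 equal classes of depth, the shallow, middle and deep class held 27.1, 49.4 and 164.8 per 10,000. Classes cut in the same way within each other genotype held 14.1, 13.99 and 14.2 in WT and 15.1, 12.04 and 15.8 in Fgf23cKO. In Dmp1KO/Fgf23cKO they held 12.1, 12.8 and 20.5, so Dmp1KO was highest at each rank of depth. The classes were not matched in depth between genotypes. The median cell held 12102 UMIs in the deep class of WT and 10770 in the shallow class of Dmp1KO, where *Spp1* stood at 14.2 and 27.1. Depth differed between genotypes as well, with a median of 7057 UMIs per myeloid cell in WT and 20664 in Dmp1KO, and its part in the size of the difference was not tested beyond the thinned values.

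Cells carrying osteoclast RNA were separated from the other myeloid cells by the summed level of the osteoclast list. Below 5 per 10,000 of that list *Spp1* stood at 92.5 in Dmp1KO, against 12.5 in WT, 12.6 in Fgf23cKO and 13.3 in Dmp1KO/Fgf23cKO. At 5 to 20 it was 133 against 27.1, 27.7 and 45.1, and at 20 to 100 it was 116 against 16.0, 10.9 and 25.4. In WT the 47 cells at 100 and over, those richest in osteoclast RNA, held 5.68, the lowest level of any bin. In each genotype *Spp1* peaked at 5 to 20, and Dmp1KO was higher in every bin, the last of which held only 6 cells. The osteoclast list itself summed to 8.65 and 9.498 per 10,000 in Dmp1KO myeloid cells, to 6.23 to 9.86 in WT, to 3.85 to 6.81 in Fgf23cKO and to 3.52 to 5.78 in Dmp1KO/Fgf23cKO, so Dmp1KO overlapped with WT and was above the other two. Dmp1KO had 2359 of its 6060 myeloid cells at 5 to 20, WT 561 of 5003, Fgf23cKO 303 and Dmp1KO/Fgf23cKO 205. The bins mostly follow *Atp6v0d2* and *Ctsk*, with 107289 and 66312 UMIs in tagged myeloid cells, against 18328 for *Acp5*, the next highest. *Acp5* and *Mmp9* of this list were called lower in Dmp1KO than in WT myeloid cells, where 67.8% of genes were called. The other markers of the list were not compared singly between genotypes. The part of these cells in the *Spp1* difference was not tested beyond the values by bin.

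Whether myeloid *Spp1* could be osteoblast RNA spread through the reaction was read from the ratio of the myeloid to the stromal level, culture by culture. For 12 osteoblast genes not used by the gate (*Bglap*, *Bglap2*, *Ifitm5*, *Col11a1*, *Col5a1*, *Col5a2*, *Cthrc1*, *Omd*, *Alpl*, *Phex*, *Pcolce* and *Sp7*) the median ratio was 0.331 to 1.72% in tagged cultures, and *Ibsp* stood at 0.0701 to 1.34%, below the reference median of its own culture in all 11. Single reference genes ran from 0.142 to 6.53%, and within a culture they spread widely, as from 0.171 to 4.88% in Dmp1KO culture 3. *Spp1* stood at 16.5 to 18.4% in WT, 10.1 to 13.0% in Fgf23cKO, 21.2 to 53.6% in Dmp1KO/Fgf23cKO, and 76.7 and 153% in Dmp1KO. Its ratio was 7.56 to 53.9 times the reference median outside Dmp1KO, and 455 and 121 times in Dmp1KO. It was also above the highest reference gene of its culture in all 11, most narrowly in Fgf23cKO culture 3 (12.97 against 6.53%), and in the untagged Fgf23cKO sample the 2 were level (10.4%). In Dmp1KO myeloid cells *Ibsp* was at its lowest while *Spp1* was at its highest: at 1000 UMIs, 0.670 and 0.702% of these cells had an *Ibsp* UMI, against 3.83 to 10.97% in the other cultures. A difference in *Spp1* RNA made by the myeloid cells and a difference in uptake from another source than these 12 genes report cannot be told apart.

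**Figure D4:**
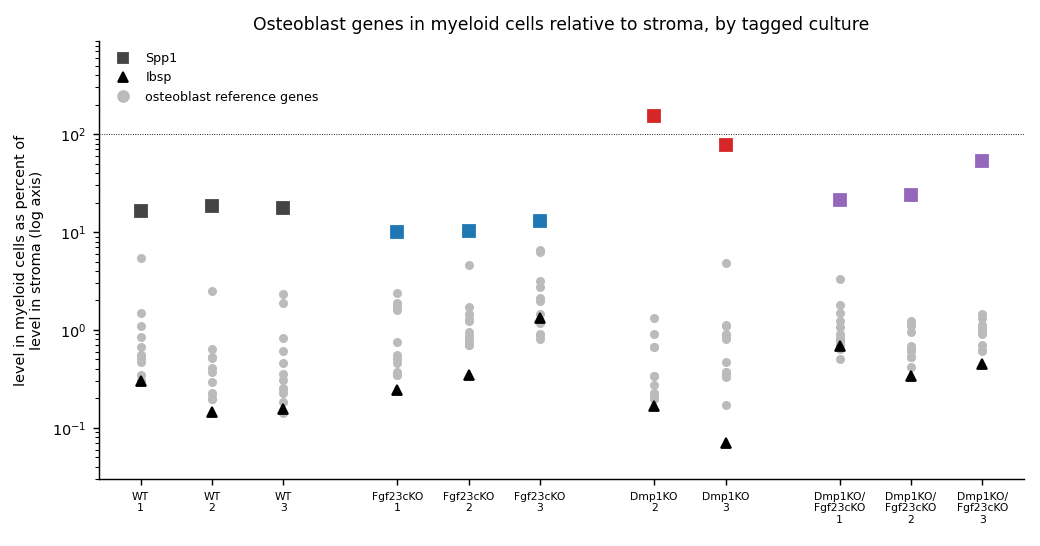
Level in myeloid cells as a percent of the level in stroma, by sample, on a log axis; squares are *Spp1*, triangles *Ibsp*, and grey points the osteoblast reference genes. *Ibsp* lies at or under 1.34% in tagged cultures, and *Spp1* lies above 10% in every sample and at 76.7 and 153% in the tagged Dmp1KO cultures.

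On the log2 scale the ratio for *Spp1* in Dmp1KO exceeded that in WT by 2.63, with no overlap (exact two-sided permutation test of the absolute difference in means, p = 0.1, the smallest that 2 against 3 cultures allow). It was 0.78 higher in Dmp1KO/Fgf23cKO and 0.66 lower in Fgf23cKO than in WT, each also without overlap and at p = 0.1, the smallest for 3 against 3 in the exact permutation test. Dmp1KO/Fgf23cKO was 1.85 below Dmp1KO (exact permutation p = 0.2) and 1.44 above Fgf23cKO (exact permutation p = 0.1), with no overlap. The place of Fgf23cKO depended on the gate. Gates at 10 and 50 kept it below WT. With other gate genes it averaged 27.0% (13.6 to 35.7%), against 18.9% in WT (15.3 to 21.0%). It then overlapped with WT and with Dmp1KO/Fgf23cKO (21.1 to 52.8%). Cultures of a genotype shared a reaction and are not independent for free RNA. The reverse spread was read in the same way: the median of 8 macrophage markers in stroma stood at 6.20 to 15.4% of the myeloid level in tagged cultures, and single markers at 5.15 to 18.1%. At the median ratio of its culture the stromal *Spp1* of Dmp1KO would be 14.5 and 9.66 per 10,000, of the 81.3 and 130.4 measured.

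*Mepe* was sparse. WT stroma held 49 UMIs in its tagged cultures, Fgf23cKO 886, Dmp1KO 1 and Dmp1KO/Fgf23cKO 438, which gave 0.0201 to 0.164, 0.377 to 1.80, 0 and 0.00358, and 0.0645 to 0.669 per 10,000 in the cultures. All Fgf23cKO cultures were above all WT cultures, and both Dmp1KO cultures were below every other. Fgf23cKO exceeded WT by 3.24 ± 0.97 on the log2 scale (edgeR adjusted p = 0.0644), but 1 Fgf23cKO cell held 581 UMIs. In a refit added once the data had been seen, without the cell richest in *Mepe* of each genotype, the log2 ratio was 2.01 (edgeR adjusted p = 0.229), so the call rests on those cells. Dmp1KO/Fgf23cKO exceeded Dmp1KO (edgeR adjusted p = 0.0915), with the single Dmp1KO UMI giving a level 0.740% of that in Dmp1KO/Fgf23cKO (exact 95% interval 0.0187 to 4.14%), and 229 of the 438 UMIs lay in 1 cell. Without the cell richest in *Mepe* of each genotype the log2 ratio was 8.41, against 7.06 with them (edgeR adjusted p = 0.124 without). In Dmp1KO the cell left out held the only *Mepe* UMI. The part of the cell with 229 UMIs alone was therefore not tested. The first call was also lost without WT culture 1 or 2 or Fgf23cKO culture 2 (adjusted p = 0.164, 0.164 and 0.18), and the other without WT culture 1 or 2, either Dmp1KO culture, or Dmp1KO/Fgf23cKO culture 1 or 3 (adjusted p from 0.111 to 0.363). The comparisons of Dmp1KO with WT, Dmp1KO/Fgf23cKO with WT and Dmp1KO/Fgf23cKO with Fgf23cKO were not called (edgeR adjusted p = 0.21, 0.253 and 0.409). The untagged samples stood at 0.325 in WT, 0.0256 in Fgf23cKO, 0.00801 in Dmp1KO and 0.0985 in Dmp1KO/Fgf23cKO, so that WT was above Fgf23cKO there. With them included Fgf23cKO against WT was not called (2.22; edgeR adjusted p = 0.163). In myeloid cells *Mepe* stayed under 0.005 per 10,000 in every tagged culture and did not pass the filter on low counts.

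**Figure D5:**
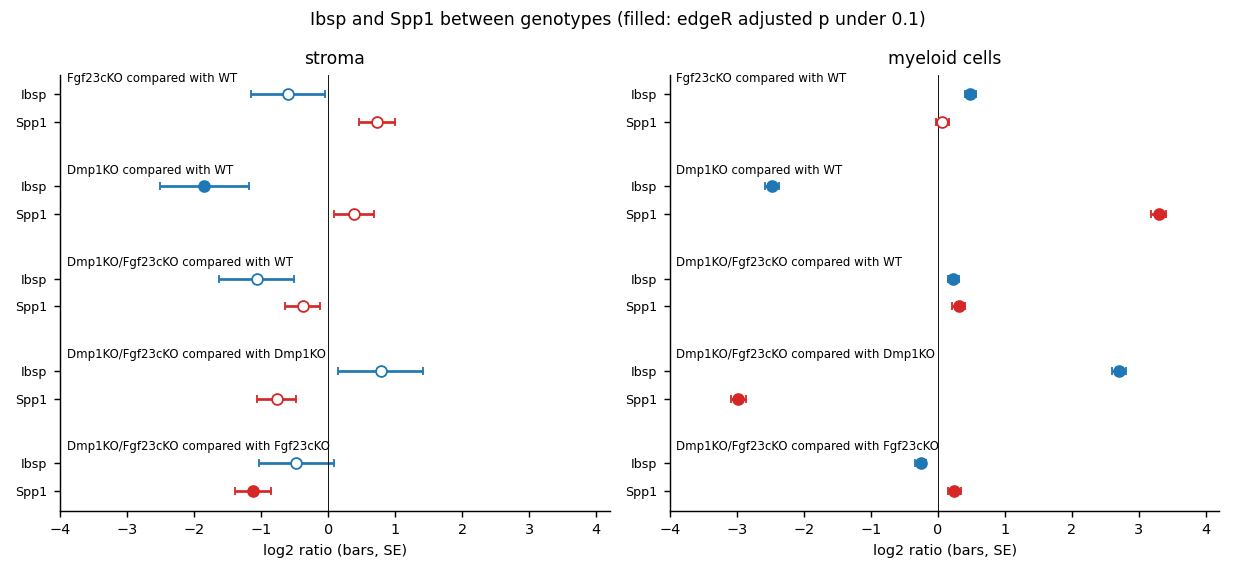
Log2 ratios of *Ibsp* and *Spp1* between genotypes in stroma and in myeloid cells, with SE derived from the edgeR F statistic. Filled points have an adjusted p under 0.1. The longest distances from 0 are those of *Spp1* in myeloid cells, 3.29 for Dmp1KO against WT and -2.98 for Dmp1KO/Fgf23cKO against Dmp1KO, while the stromal values of *Spp1* lie between -1.12 and 0.73.

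The 2 by 2 design also allowed a test of whether the difference between Dmp1-/- and Dmp1+/+ cultures changed with the *Fgf23* deletion, each genotype being 1 reaction. It was taken as the difference of Dmp1KO/Fgf23cKO minus Fgf23cKO and Dmp1KO minus WT. For myeloid *Spp1* this was -3.05 ± 0.15 on the log2 scale (edgeR adjusted p = 3.2e-08), with 61.9% of genes called, and for myeloid *Ibsp* 2.22 ± 0.13 (edgeR adjusted p = 7.67e-08). In stroma, where 16.5% of genes were called, it was -1.50 ± 0.40 for *Spp1* (edgeR adjusted p = 0.0385), 5.15 ± 1.71 for *Dmp1* (edgeR adjusted p = 0.0812), 1.38 ± 0.84 for *Ibsp* (edgeR adjusted p = 0.33) and 3.83 ± 3.25 for *Mepe* (edgeR adjusted p = 0.499). The stromal *Spp1* call was lost without Dmp1KO culture 3 (-1.10, adjusted p = 0.175) and the *Dmp1* call, whose value rests on 3 UMIs in Dmp1KO, in 8 of 11 fits that left out 1 culture, all but those without WT culture 1 or Fgf23cKO culture 2 or 3 (adjusted p up to 0.25).

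Co-detection was read per stromal cell at 1000 UMIs. In WT, 66 of 421 cells had a *Dmp1* UMI (15.7%; exact 95% interval 12.3 to 19.5%), 223 *Ibsp*, 310 *Spp1* and 7 *Mepe*. In myeloid cells of WT the shares were 0.172% for *Dmp1*, 4.64% for *Ibsp*, 52.0% for *Spp1* and 0 of 4638 cells for *Mepe*, which allows a share of up to 0.0647%. *Dmp1* was nested within *Ibsp*: 65 of the 66 WT cells with *Dmp1* also had *Ibsp*, against 44.5% of the 355 cells without *Dmp1*, and only 1 of 198 cells without *Ibsp* had *Dmp1*. In Fgf23cKO 31 of 33 cells with *Dmp1* had *Ibsp*, and 2 of 230 cells without *Ibsp* had *Dmp1*. The 7 WT cells with *Mepe* each had *Ibsp* and *Spp1*, and 5 of them had *Dmp1*.

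*Spp1* showed less of this nesting. It was detected in 78.9% of WT stromal cells with *Ibsp* and 67.7% of those without, in 78.5 and 68.3% in Fgf23cKO, 83.6 and 81.4% in Dmp1KO, and in 156 of 208 and 59.6% in Dmp1KO/Fgf23cKO. Stromal cells just above the gate carried much macrophage RNA, and its part in these *Spp1* shares was not tested. Between genotypes, *Ibsp* was detected in 53.0% of stromal cells in WT, 42.8% in Fgf23cKO, 23.5% in Dmp1KO and 46.4% in Dmp1KO/Fgf23cKO, and *Spp1* in 73.6, 72.6, 81.9 and 66.7%. Myeloid cells of Dmp1KO had *Spp1* in 84.2%, so a *Spp1* UMI there told the compartments apart no longer. Thinning left out 180, 95, 69 and 149 shallower stromal cells in the same order of genotypes. The unthinned shares for *Ibsp* were 64.7, 72.8, 39.6 and 66.5%, and stromal depth differed.

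The genes whose counts followed each member most closely from cell to cell also differed. Over 987 thinned stromal cells of tagged cultures, and as the mean Pearson r within cultures, those of *Dmp1* were *Ibsp* (0.45), *Col11a1* (0.39), *Col1a1* (0.39), *Col1a2* (0.39) and *Nupr1* (0.36), over the 8 cultures with a *Dmp1* UMI. Those of *Ibsp* were *Col1a1* (0.75), *Col1a2* (0.72), *Sparc* (0.59), *Col11a1* (0.58) and *Bglap* (0.55), over 11 cultures. *Col1a1*, *Col1a2* and *Sparc* belong to the gate. For stromal *Spp1* they were *Timp1* (0.49), *Fn1* (0.36), *Qsox1* (0.35), *Timp2* (0.34) and *Ecm1* (0.34), which encode protease inhibitors and matrix proteins other than fibrillar collagen, QSOX1 being a sulfhydryl oxidase. In 12965 myeloid cells they were *Fabp5* (0.26), *Lgals3* (0.24), *Gpnmb* (0.23), *Lpl* (0.22) and *Ftl1* (0.21), genes of lipid handling, lysosome and iron storage in macrophages. Cells of a culture share a library, and these values describe the order of likeness only. The 8 cultures averaged for *Dmp1* included Dmp1KO/Fgf23cKO ones, and that genotype had only 4 thinned stromal cells with a *Dmp1* UMI. *Mepe* had a UMI in 0.811% of the cells, too few for such a value.

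The osteoblast reference list gave the setting for the stromal members. In Dmp1KO against WT 9 of 12 were lower and none higher (median log2 ratio -1.30, against -0.02 over all genes tested), led by *Bglap2* at -3.61 ± 0.59 and *Bglap* at -4.13 ± 0.75 (edgeR adjusted p = 0.00262 and 0.00431). *Ibsp*, at -1.85, lay between this median and *Bglap*. In Dmp1KO/Fgf23cKO against Dmp1KO 7 of 12 were higher and none lower (median 1.06), with *Bglap2* at 2.82 ± 0.57 and *Bglap* at 3.48 ± 0.72 (edgeR adjusted p = 0.0262 and 0.0282). In Dmp1KO/Fgf23cKO against WT only *Pcolce* (0.47) was called, in Fgf23cKO against WT 2 were lower (*Col5a2* at -0.55 and *Sp7* at -0.79), and in Dmp1KO/Fgf23cKO against Fgf23cKO 2 were higher (*Alpl* at 0.92 and *Col5a2* at 0.44). The difference of differences was above 0 and called for 9 of 12. These counts, and those of the lists that follow, stand beside 26.1% of all genes tested called in stroma in Dmp1KO against WT, 8.4% in Dmp1KO/Fgf23cKO against Dmp1KO, 22.6% against WT and 2.34% against Fgf23cKO, 15% in Fgf23cKO against WT and 16.5% in the difference of differences.

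Of 6 osteoblast transcription factors, all tested in stroma, *Dlx3* and *Sp7* were lower in Fgf23cKO (-1.79 and -0.79) and, with *Atf4*, in Dmp1KO (*Dlx3* -3.25, *Sp7* -1.27). DLX3 is a homeodomain factor and SP7 (osterix) is needed for osteoblast formation. Against Dmp1KO, 4 of the 6 were higher in Dmp1KO/Fgf23cKO, with *Vdr* at 1.35 ± 0.29 and *Atf4* at 0.52 ± 0.14 (edgeR adjusted p = 0.0304 and 0.061). *Vdr*, the vitamin D receptor, was also 1.43 ± 0.27 above WT in Dmp1KO/Fgf23cKO (edgeR adjusted p = 0.00572), while *Dlx3* was lower there (-1.195). None was called between Dmp1KO/Fgf23cKO and Fgf23cKO, and 3 were above 0 in the difference of differences. In myeloid cells 4 of the 6 were tested, and the calls per comparison came to at most 2 in either direction, *Atf4* being higher in all 3 genotypes than in WT (0.34 in Fgf23cKO, 0.72 in Dmp1KO and 0.24 in Dmp1KO/Fgf23cKO).

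The enzymes that modify or cleave SIBLING proteins were *Fam20c*, which phosphorylates them, *Phex*, which binds and cleaves their acidic peptides, *Alpl* and *Acp5*, which remove phosphate, *Tgm2*, which cross-links them, and the proteases *Bmp1*, *Mmp3*, *Mmp9* and *Ctsb*. Of the 9, 7 were tested in stroma. In Dmp1KO 4 were lower than in WT (*Phex* by 2.82 and *Acp5* by 2.41 on the log2 scale, with *Alpl* and *Tgm2*) and *Fam20c* was higher. *Acp5* had 539 UMIs in tagged stroma and 18328 in tagged myeloid cells. The part of myeloid RNA in its stromal change was not tested. In Dmp1KO/Fgf23cKO against Dmp1KO 2 were higher, *Alpl* at 1.06 ± 0.23 and *Phex* at 3.42 ± 0.76 (edgeR adjusted p = 0.0316 and 0.0346). *Fam20c* was 0.95 above WT in Dmp1KO/Fgf23cKO (edgeR adjusted p = 0.0832), *Alpl* was 0.92 above Fgf23cKO in Dmp1KO/Fgf23cKO, none was called in Fgf23cKO against WT, and 3 were above 0 in the difference of differences. In myeloid cells 8 were tested. *Fam20c* was 1.93 ± 0.09 higher in Dmp1KO than in WT and lower in Dmp1KO/Fgf23cKO than in Dmp1KO, with a log2 ratio of -1.198 ± 0.08 (edgeR adjusted p = 3.15e-09 and 1.14e-07). It was also above WT in Fgf23cKO, by 0.70 ± 0.08, and in Dmp1KO/Fgf23cKO, by 0.73 ± 0.08 (edgeR adjusted p = 3.29e-05 and 1.22e-05). *Tgm2* stood at -0.67 in Dmp1KO against WT and at 1.31 in Dmp1KO/Fgf23cKO against Dmp1KO. Over the list, 1 of 8 was higher and 6 lower in Dmp1KO than in WT, and 6 were higher and 1 lower in Dmp1KO/Fgf23cKO than in Dmp1KO.

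Receptors of SIBLING proteins are the integrin subunits and CD44. Of 9, 8 were tested in stroma. In Fgf23cKO 3 were higher than in WT (*Itgb5* at 0.41 and *Cd44* at 0.55, with *Itgb3*), in Dmp1KO 2 were higher and 2 lower (*Itgb5* at 0.57, *Itga4* at -1.49), and in Dmp1KO/Fgf23cKO 4 were higher and 1 lower (*Itgb5* at 0.36, *Itga4* at -1.41). None was called between Dmp1KO/Fgf23cKO and Dmp1KO or Fgf23cKO, and *Itgb5* alone was called in the difference of differences (-0.61). In myeloid cells all 9 were tested and 4 were higher and 4 lower in Dmp1KO than in WT, with *Itga5*, of the fibronectin receptor, at 0.93 ± 0.09 and *Cd44* at 0.66 ± 0.07 (edgeR adjusted p = 1.5e-06 and 4.99e-06). In Dmp1KO/Fgf23cKO against Dmp1KO 4 were higher and 3 lower, led by *Itgav*, part of the main osteopontin receptors, at 1.27 ± 0.10 and *Itga9* at 1.18 ± 0.10 (edgeR adjusted p = 3.28e-07 and 4.58e-07). In the other myeloid comparisons 4 to 6 receptors were higher and 1 or 2 lower, 3 to 5 enzymes were higher and 1 lower, and 3 to 8 of the osteoblast reference genes were higher and at most 1 lower. With 36.7 to 67.8% of all genes called in myeloid cells, counts of this size are near the background.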

How the data were processed

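Libraries were 3′ droplet single-cell RNA-seq with CellPlex tags. Per the labels and the submitters' processing notes, the authors aligned to mm10 with Cell Ranger and used Seurat. The version of Cell Ranger, 7.0.1, was read from the headers of the count matrices. UMI counts per gene and cell were deposited for each demultiplexed sample, with a minimum of 500 UMIs per cell. Tag counts in the same matrices gave the check of the 4th samples, in which the median cell had 61.1 to 76.3% of its tag counts on 1 tag, against 83.4 to 99.3% in the tagged cultures.

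The stromal gate (25 UMIs per 10,000 of *Col1a1*, *Col1a2*, *Sparc*, *Tagln* and *Tpm2*) was applied to all cells, with no other filter and no doublet removal. The deposited samples had been demultiplexed by tag, which leaves doublets of cells with the same tag in place. Levels are UMIs per 10,000 UMIs of the summed cells and are not compared between genes. Counts were summed per culture and compartment (at least 10 cells) and tested in R 4.3.3 with edgeR 4.0.16 (filterByExpr, TMM factors, quasi-likelihood test, all 4 genotypes in 1 fit, Benjamini-Hochberg over all genes tested, threshold 0.1 as in the study). Each SE was derived as the absolute log2 ratio over the square root of the quasi-likelihood F statistic, not estimated directly. DESeq2 1.42.0 was an alternative. Per-cell and exact tests ran in Python 3.11.15. Thinned values draw 1000 UMIs per cell. Exact intervals (Clopper-Pearson, 95%) and limits (3 counts for a count of 0) cover counting error only.

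On data simulated for Dmp1KO against WT, with 200 changed genes in each of 5 draws, the test recovered 82.5% of 2-fold and 94.8% of 4-fold changes in myeloid cells and 46.4% and 85.7% in stroma. Of its calls on simulated data, 6.88 to 11.6% were false. The simulation changed few genes and held no difference between reactions. The measured comparison called 67.8% of genes in myeloid cells and 26.1% in stroma, so these shares may not carry over.

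The genes named are the members, *Dspp*, the 5 genes most alike each member, and the 2 members of each list with the smallest p in a comparison; list members beyond these, the markers at 0 and the promoter motifs were named after values were seen. The members and lists were chosen with earlier results of these data known, and the lists support nothing by themselves. Of the lists fixed for this work, 1 osteoblast gene and 1 marker are not reported here and were left out of the counts and medians.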

Additional observations from a re-analysis of the deposited data

Results flagged for a closer look

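For 3 members, in 4 results, the difference between Dmp1-/- and Dmp1+/+ cultures was called as unequal with and without the *Fgf23* deletion. The test was of the difference itself (edgeR quasi-likelihood test, log2 scale, Dmp1KO/Fgf23cKO minus Fgf23cKO, less Dmp1KO minus WT). Each genotype was 1 reaction, so a difference between genotypes and one between reactions cannot be told apart here. For *Spp1* in myeloid cells the difference of differences was -3.05 (edgeR adjusted p = 3.2e-08), and for *Ibsp* in myeloid cells 2.22 (edgeR adjusted p = 7.67e-08). For *Spp1* in stroma it was -1.50 (edgeR adjusted p = 0.0385), and for *Dmp1* in stroma 5.15 (edgeR adjusted p = 0.0812). The *Dmp1* call, on the deleted gene itself, was lost without WT culture 2 or 3, among other fits. The *Dmp1* value rests on 3 UMIs in the Dmp1KO cultures, and the stromal *Spp1* value lost its call without Dmp1KO culture 3. The myeloid *Ibsp* value compares levels of only 0.0566 to 0.599 per 10,000, and it turned to -1.62, not called, with other gate genes. In the difference of differences 61.9% of all genes in myeloid cells and 16.5% in stroma were called. Groups held 2 or 3 cultures, so single cultures were not tested as outliers.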

How the results depend on the processing

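The myeloid *Spp1* differences of Dmp1KO from WT (2.62 to 3.40), of Dmp1KO/Fgf23cKO from Dmp1KO (-3.04 to -2.53) and between these effects (-3.76 to -2.55) kept direction and call under every alternative run, without each culture and with the untagged samples included. Of the refits of log2 ratios 416 kept direction and side of the threshold, 25 gained a call, 25 lost one and 12 turned; without 1 culture 397 kept both, 5 gained, 37 lost and 1 turned. The cause of the changes below was not tested unless stated.

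The replicate numbers did not pair the cultures (correlation of deviations between same-numbered cultures -0.163 to 0.222 in stroma and -0.197 to 0.121 in myeloid cells, over 0.1 in 2 and 1 of 15 pairs). With the replicate number as a block, calls were lost for *Dmp1* in stroma in the difference of differences (5.30), *Ibsp* in stroma in Dmp1KO against WT (-1.88), *Mepe* in stroma in Dmp1KO/Fgf23cKO against Dmp1KO (7.35), and *Spp1* in Dmp1KO/Fgf23cKO against Fgf23cKO in stroma (-1.13) and myeloid cells (0.25).

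In stroma, Fgf23cKO against WT became a call for *Dmp1* with no filter on low counts (-1.22), the untagged samples (-1.29) and thinning (-1.24), and for *Spp1* with no filter (0.78), DESeq2 (0.72), the untagged samples (0.87) and all cells of a culture summed (0.69). Dmp1KO/Fgf23cKO against Dmp1KO became a call for *Dmp1* with no filter (3.90), DESeq2 (4.005), untagged samples (3.76) and all cells (5.68), for *Spp1* with no filter (-0.76), DESeq2 (-0.78) and all cells (-2.53), and for *Ibsp* with thinning (1.05) and all cells (2.67). *Ibsp* became a call in Dmp1KO/Fgf23cKO against WT with thinning (-1.03), and in the difference of differences with untagged samples (1.95), thinning (1.59) and all cells (2.58). *Spp1* in Dmp1KO/Fgf23cKO against Fgf23cKO lost its call with thinning (-0.34), a gate at 10 (-1.03) and other gate genes (-0.77). The other gate held 517 tagged cells, 512 of them among the 1128, so most stromal cells counted there as myeloid. It also ended the calls in the difference of differences of *Dmp1* (5.30) and *Spp1* (-0.81), and of *Mepe* in Fgf23cKO against WT (4.31; 2.22 with untagged samples) and in Dmp1KO/Fgf23cKO against Dmp1KO (6.91). *Mepe* in Dmp1KO against WT became a call with DESeq2 (-5.26) and all cells (-5.19).

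Sums over all cells mix the compartments and gave 2.67 for *Spp1* in Dmp1KO against WT, as a call, and turned the sign, against stroma, of *Ibsp* in Fgf23cKO against WT (0.0887) and of *Spp1* in Dmp1KO/Fgf23cKO against WT (0.14; 0.19 with thinning), none of these 3 called. In myeloid cells the sign turned for *Dmp1* in Fgf23cKO against WT (gate at 50 -0.0372, other gate -0.24, all cells -0.68), for *Ibsp* in Dmp1KO/Fgf23cKO against WT (other gate -2.06, all cells -0.46) and, with the other gate, for *Ibsp* against Dmp1KO (-0.0884) and in the difference of differences (-1.62); of these only the -2.06 was called. *Ibsp* lost its call in Dmp1KO/Fgf23cKO against WT with a gate at 50 (0.25), against Fgf23cKO with a gate at 50 (-0.13) and all cells (-0.55), and in Fgf23cKO against WT with all cells (0.0887). Myeloid *Spp1* in Fgf23cKO against WT became a call with the other gate (0.81) and all cells (0.69). In Dmp1KO/Fgf23cKO it lost the call against WT with the untagged samples (0.17), thinning (0.0687), the other gate (0.20) and all cells (0.14), and against Fgf23cKO with the untagged samples (0.15) and thinning (0.0683), and turned, as calls, with the other gate (-0.61, adjusted p = 0.0382) and all cells (-0.55, adjusted p = 0.0556).

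Leaving out 1 culture at a time gave these ranges where a call changed. For *Dmp1* in stroma they were -1.95 to -0.80 (Fgf23cKO against WT), 3.11 to 7.99 (Dmp1KO/Fgf23cKO against Dmp1KO), -4.85 to -3.70 (against Fgf23cKO) and 4.37 to 9.25 (difference of differences). For *Ibsp* in stroma they were -2.76 to -1.29 (Dmp1KO against WT) and -1.37 to -0.83 (Dmp1KO/Fgf23cKO against WT). For *Spp1* in stroma they were 0.61 to 0.83 (Fgf23cKO against WT), -0.0181 to 0.71 (Dmp1KO against WT, below 0 without Dmp1KO culture 3), -1.09 to -0.36 (Dmp1KO/Fgf23cKO against Dmp1KO), -1.37 to -0.85 (against Fgf23cKO) and -1.83 to -1.10 (difference of differences), and for *Spp1* in myeloid cells 0.17 to 0.31 (Dmp1KO/Fgf23cKO against Fgf23cKO). For *Mepe* in stroma they were 2.12 to 4.95 (Fgf23cKO against WT) and 6.12 to 9.75 (Dmp1KO/Fgf23cKO against Dmp1KO), and for *Ibsp* in myeloid cells 0.12 to 0.29 (Dmp1KO/Fgf23cKO against WT) and -0.304 to -0.218 (against Fgf23cKO). A fit without 1 Dmp1KO culture takes the lone one to vary like the other groups.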
